A study of Caenorhabditis elegans with 2 samples.

Results

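The 443 regions described here are places where NHR-102 of Caenorhabditis elegans was precipitated over 200 and up to 1000 bp upstream of a gene on an autosome. They were chosen from the 2796 peaks of the optimal list. The submitters derived that list from the peaks of each replicate and of their pool by a measure of reproducibility. A peak was kept if its summit, the base of its highest signal, lay on 1 of the 5 autosomes and more than 200 bp from every tRNA gene. The summit also had to lie in the promoter window of exactly 1 protein-coding gene, which reaches 1000 bp upstream and 200 bp downstream of each annotated transcript 5' end, and to stand more than 200 bp upstream of the nearest such 5' end. No signal, motif or gene function entered the choice. Of the 2796 peaks, 2192 were autosomal, 2078 of these were away from tRNA genes, 1226 had their summit in a promoter window and 875 in the window of a single gene. The 875 split into 443 upstream peaks, 421 core promoter peaks within 200 bp of a 5' end and 11 farther into the gene. Upstream peaks were thus 15.84% of the optimal list, and they belonged to 415 genes.

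The study mapped the protein by ChIP-seq (chromatin immunoprecipitation followed by sequencing), in which sheared chromatin is pulled down with an antibody and the recovered DNA is sequenced. Its single group held 2 biological replicates of whole L4 larvae, hermaphrodites of strain OP463 (unc-119(tm4063) III; wgIs463), collected 50 h after they were synchronized as starved L1 larvae following bleaching. Both replicates carried the unc-119(tm4063) allele and the insertion wgIs463, from which NHR-102 with a C-terminal GFP-FLAG tag is stably expressed, and the tag was precipitated with an antibody against GFP. There was no second genotype, stage or treatment. The labels do not give the level or the tissues in which the fusion protein was made, and whole animals mix all tissues, so a peak cannot be assigned to a cell type.

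Nuclear hormone receptors are transcription factors that bind DNA through a zinc finger domain, and many of them respond to small lipid-like molecules. The family is greatly expanded in C. elegans, and several members regulate fat metabolism and the response to diet. The stretch upstream of a worm gene is short, since genes lie close together, and it commonly holds both the promoter and nearby regulatory elements. Many worm mRNAs receive a spliced leader at their 5' end by trans-splicing, so transcription can start some way before the 5' end that is annotated.

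The sequences under 6 of the 7 strongest upstream peaks are shown first, because they carry the highest signals of the set. Each line gives the summit base with 50 bp on either side, 5' to 3' on the strand of the gene, from the RefSeq genome sequence of WBcel235, the assembly also called ce11. Capitals mark matches to any of the 13 motifs searched. The ribosomal protein gene rpl-3 is shown at chrIII:3867525-3867625, rpl-35 at chrIII:7854639-7854739, H41C03.3 at chrII:5844794-5844894 and the cytochrome c oxidase gene cox-5A at chrIII:12905148-12905248. The stretch of eelo-2 is chrIV:17249855-17249955, and that of the histone acetyltransferase gene cbp-1 is chrIII:9765568-9765668. All 6 genes lie on the plus strand.
rpl-3: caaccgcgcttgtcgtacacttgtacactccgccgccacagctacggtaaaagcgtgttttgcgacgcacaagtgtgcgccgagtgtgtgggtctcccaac
rpl-35: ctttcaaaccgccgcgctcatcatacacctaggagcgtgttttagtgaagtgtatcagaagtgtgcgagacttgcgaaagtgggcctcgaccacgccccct
H41C03.3: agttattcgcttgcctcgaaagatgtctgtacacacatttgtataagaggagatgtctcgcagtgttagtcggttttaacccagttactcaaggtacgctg
cox-5A: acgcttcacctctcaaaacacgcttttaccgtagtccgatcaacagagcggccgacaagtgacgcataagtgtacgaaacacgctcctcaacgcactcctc
eelo-2: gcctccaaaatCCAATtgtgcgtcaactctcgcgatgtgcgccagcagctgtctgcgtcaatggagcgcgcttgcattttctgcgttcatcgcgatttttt
cbp-1: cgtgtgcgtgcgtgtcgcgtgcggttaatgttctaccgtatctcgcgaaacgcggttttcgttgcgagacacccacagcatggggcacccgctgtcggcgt
A single motif match, the CCAAT box of eelo-2, occurred in these 6 windows, and their GC content ran between 43.56% at H41C03.3 and 61.39% at cbp-1, against a median of 33.66% over all upstream windows of the autosomes. A second set shows the GATA factor site, TGATAA or its reverse complement TTATCA, because its share differed between upstream peaks and intergenic peaks. The 4 windows come from strong upstream peaks that hold it, and not every stronger one is shown: F19B2.5 at chrV:20164674-20164774 on the minus strand, the receptor gene nhr-119 at chrII:2800968-2801068 on the minus strand, B0507.3 at chrV:8768594-8768694 on the plus strand and the F-box gene fbxc-29 at chrII:915383-915483 on the plus strand.
F19B2.5: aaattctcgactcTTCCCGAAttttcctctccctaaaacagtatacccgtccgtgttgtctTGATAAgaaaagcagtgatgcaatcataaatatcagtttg
nhr-119: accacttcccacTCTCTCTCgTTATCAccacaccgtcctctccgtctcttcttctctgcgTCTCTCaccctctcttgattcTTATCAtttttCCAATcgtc
B0507.3: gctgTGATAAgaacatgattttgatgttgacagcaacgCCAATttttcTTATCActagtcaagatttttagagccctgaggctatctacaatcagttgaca
fbxc-29: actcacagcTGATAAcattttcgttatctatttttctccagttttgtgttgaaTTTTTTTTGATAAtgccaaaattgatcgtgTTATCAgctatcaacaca
The windows of nhr-119, B0507.3 and fbxc-29 hold the site more than once. Capitals in the 4 lines also mark a heat shock element core in F19B2.5, GAGA repeats and a CCAAT box in nhr-119, a CCAAT box in B0507.3 and a T run in fbxc-29. A last set, chosen after the values were seen, shows strong upstream peaks with an E-box, a GAGA repeat and a GC box, the motifs with the highest ratio between their share at summits and their share over all upstream windows. They are F21C10.10 at chrV:9095764-9095864 on the plus strand with an E-box, F59B1.8 at chrV:3644444-3644544 on the minus strand with a GAGA repeat and vig-1 at chrII:1320566-1320666 on the plus strand with a GC box.
F21C10.10: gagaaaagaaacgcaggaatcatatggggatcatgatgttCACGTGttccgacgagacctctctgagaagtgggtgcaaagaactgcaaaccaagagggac
F59B1.8: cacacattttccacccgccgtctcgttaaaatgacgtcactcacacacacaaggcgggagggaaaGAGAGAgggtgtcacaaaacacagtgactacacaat
vig-1: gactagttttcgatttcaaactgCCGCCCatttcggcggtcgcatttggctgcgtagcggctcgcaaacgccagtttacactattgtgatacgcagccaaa

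The 5 strongest upstream peaks lay before rpl-3, rpl-35, egg-5, H41C03.3 and cox-5A, with signals of 914.7 to 1849. The signal is the value that the submitters' peak caller gave each peak, and it can be compared only within a list. The peak of rpl-3, which encodes a protein of the large ribosomal subunit, had a signal of 1849 in the optimal list, 924.9 in replicate 1 and 926.9 in replicate 2, with its summit 279 bp upstream of the 5' end. It was the strongest upstream peak and the 10th of all 2796. Next came rpl-35, another gene of the large subunit, with 1122 in the optimal list, 562.9 in replicate 1 and 557.3 in replicate 2, and its summit at 445 bp. The third peak, at egg-5, a gene that acts in the egg-to-embryo transition, had 1045 in the optimal list, 543.3 in replicate 1 and 508.6 in replicate 2. Its summit, 708 bp upstream of egg-5, lay inside sls-2.4, a gene for the spliced leader RNA SL2.

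H41C03.3 followed with 930.5 in the optimal list, 505 in replicate 1 and 434 in replicate 2, 933 bp upstream of its 5' end and 21 bp from another SL2 RNA gene, sls-2.1. The peak of cox-5A, a subunit of cytochrome c oxidase, had 914.7 in the optimal list, 447.4 in replicate 1 and 467.3 in replicate 2. These 5 peaks had close values in both replicates. SL2 RNA genes are repeated in the genome in near-identical copies, and how reads that match several copies were treated is not given here, so the values beside sls-2.4 and sls-2.1 are uncertain. The remaining 15 of the 20 strongest ran down to 456.9 at fust-1, which encodes an RNA-binding protein. They lay before eelo-2 (749), cbp-1 (748.1), F59B1.8 (717.1), the zinc finger gene ztf-7 (684.5), F16G10.6 (668.3) and the ubiquitin ligase gene wwp-1 (634.2). Genes for replication proteins were among them, rpa-2 (631.1), a subunit of the single-strand binding protein RPA, and pcn-1 (523.4), the sliding clamp of DNA polymerase. Others were eif-3.C (612.1), a subunit of translation initiation factor 3, dnj-9 (610.8), a DnaJ-domain protein, mog-4 (495.9), a helicase of pre-mRNA splicing, Y54G11A.2 (485.6), H41C03.3 at a second summit (476.9) and vig-1 (458.9), an RNA-binding protein.

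The signal of upstream peaks had a median of 144.4, with quartiles of 108.8 and 218.2 and limits of 90.95 and 1849. The median was 132.1 at core promoter peaks, 141 at intergenic peaks away from promoters (390 autosomal peaks in no promoter window and no annotated gene), 164.8 at the 351 peaks in promoters shared by several genes and 142.9 over all 2796 peaks. Of the upstream peaks 225 (50.79%) exceeded the median of all peaks, against 179 of 421 core promoter peaks (42.52%) and 193 of 390 intergenic peaks (49.49%). Neither difference passed the threshold of 0.05 (Fisher's exact test, two-sided, adjusted by Benjamini-Hochberg over 36 comparisons, p = 0.08715 against core promoter peaks and p = 1 against intergenic peaks). The median width was 444 bp in each kind of peak, and 30 upstream peaks (6.77%) were wider, against 23 core promoter peaks (5.46%) and 21 intergenic peaks (5.38%, Fisher's exact test, adjusted p = 1 in both comparisons). Peaks were the units of these tests, which therefore measure differences between kinds of peak in 1 list and not between animals.

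Both replicates were compared through their full lists of 30000 peaks each. Among the 443 upstream summits, 433 lay in a peak of both lists, 6 were in no peak of replicate 1 and 4 in no peak of replicate 2. In the tighter comparison, 309 (69.75%, exact 95% interval 65.24 to 74) lay in 1 of the 2796 strongest peaks of each replicate. Over all optimal peaks this share was 70.0%, so upstream peaks stood at the background. It was 285 of 421 at core promoter peaks (67.7%) and 264 of 390 at intergenic peaks (67.69%, Fisher's exact test, adjusted p = 1 in both comparisons). A further 54 upstream summits were among the strongest of replicate 1 only, 66 among those of replicate 2 only and 14 among those of neither. Across the 433 matched peaks, Spearman's rho between the replicates was 0.70, a description over peaks that share their libraries, and the median ratio of the 2 ranks was 1.45.

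**Figure D1:**
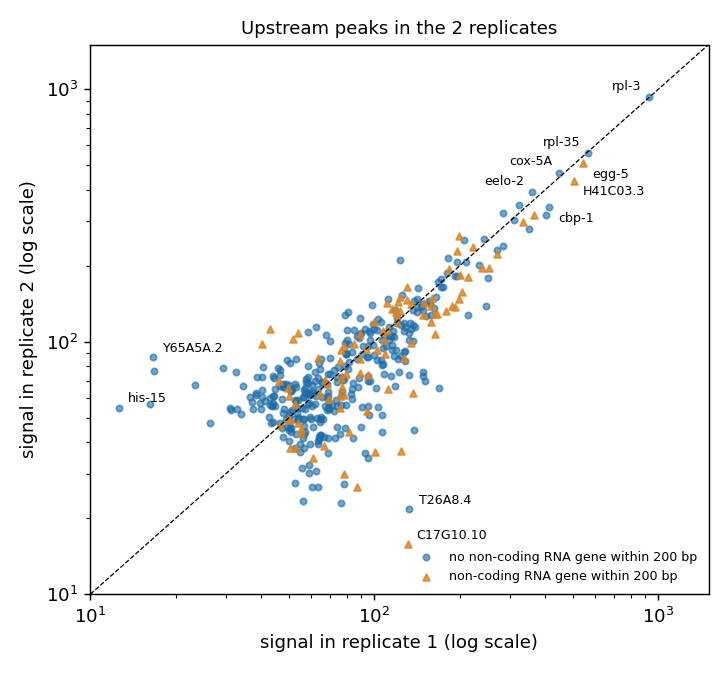
Signal of upstream peaks in replicate 1 (horizontal) and replicate 2 (vertical), both on log axes, for the 433 peaks found in both lists. Triangles are peaks with a non-coding RNA gene within 200 bp, and the dashed line marks equal values. Peaks with a signal above 300 in either replicate lie close to the line, and the scatter widens towards weaker peaks.

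Reproducibility followed the strength of the peak. With the upstream peaks sorted by signal into 4 groups of equal size, 109 of the 111 strongest summits (98.2%), with signals of 218.2 to 1849, were among the strongest of both replicates. The share was 105 of 110 (95.45%) in the next group, 74 of 111 (66.67%) in the one below and 21 of the 111 weakest (18.92%), with signals of 90.95 to 108.6. The optimal list was itself made from the replicate lists, so these shares are not independent of its signal. A rank ratio above 10 occurred at 5 peaks. At C17G10.10 the signal was 131 in replicate 1 (rank 529) and 15.81 in replicate 2 (rank 18659), and at T26A8.4 it was 132.9 in replicate 1 and 21.69 in replicate 2. The others differed the other way. Y65A5A.2 had 16.59 in replicate 1 and 86.92 in replicate 2, and the weaker peak in the intron of zfp-1, a chromatin protein gene, had 16.71 in replicate 1 and 76.32 in replicate 2. The histone gene his-15 had 12.65 in replicate 1 and 54.73 in replicate 2, and Y51A2D.13, the sixth most discordant, had 16.16 in replicate 1 and 56.91 in replicate 2.

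Upstream peaks crowded towards the near end of their range. The sequence that meets the rule amounted to 12.42 Mb, 15.04% of the autosomes, and held 35.67 upstream peaks per Mb. Core promoter sequence, 6.98 Mb, held 60.33 core promoter peaks per Mb, and the autosomes as a whole held 26.55 peaks per Mb. Density was 71.2 per Mb (115 peaks) in the nearest 100 bp, up to 300 bp from the 5' end, and 51.17 per Mb (81 peaks) in the next 100 bp. From there to 1000 bp it stayed between 19.11 and 34.65 per Mb, on both sides of the autosomal average, and it showed no further steady fall. Since the near limit is set by the rule, the peaks on either side of it differ little in position. Just inside it lay unc-31, whose protein acts in release of neuropeptides (signal 136.2), and cfim-2 (296.2), both 1 bp past it, and just outside lay Y73F8A.27 (199 bp, 360.8) and nurf-1 (199 bp, 154.3). At the far limit M106.3 (997 bp, 115.7) and the collagen gene col-20 (989 bp, 133.2) lay inside, and Y49F6B.2 (1020 bp, 91.36) and hmit-1.3 (1022 bp, 105.3) outside.

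**Figure D2:**
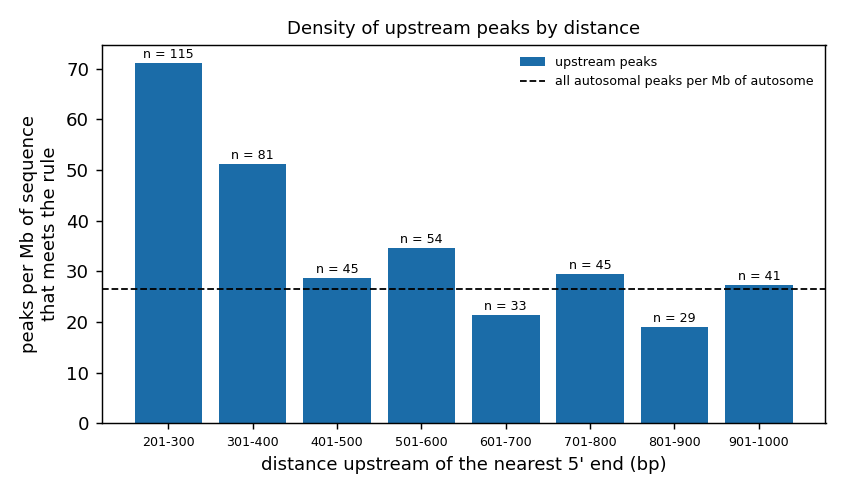
Upstream peaks per Mb of sequence that meets the rule (vertical), in bins of 100 bp by distance upstream of the nearest 5' end (horizontal), with the number of peaks above each bar. The dashed line is the density of all autosomal peaks, 26.55 per Mb. The bars for the nearest 100 bp and the next stand at 71.2 and 51.17 per Mb, and the other 6 lie between 19.11 and 34.65.

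Peaks nearer to the gene and farther from it had similar values. The 202 peaks more than 500 bp upstream had a median signal of 137.6 and the 241 nearer ones 146.6. A non-coding RNA gene lay within 200 bp at 52 of the farther (25.74%) and 44 of the nearer peaks (18.26%), with exact 95% intervals of 19.86 to 32.35 and 13.59 to 23.72 that overlap. By chromosome, density was 38.17 peaks per Mb on I (80 peaks), 43.08 on II (106), 40.83 on III (76), 33.06 on IV (82) and 28.11 on V (99).

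Most upstream summits, 315 (71.11%), lay in no annotated gene, while 49.23% of the bases that meet the rule do. Introns held 75 summits, UTRs 13 and coding exons 10, and 30 lay in a non-coding RNA gene outside any protein-coding one. Another 11 of the summits in protein-coding genes lay in a non-coding RNA gene as well. Of the 75 summits in introns, 59 lay downstream of another 5' end of their own gene. In all, 61 upstream peaks stood between 2 annotated 5' ends of the same gene, upstream of one and downstream of another. Their median signal was 132.2, with limits of 91.1 and 429.4, against 146.7 for the 382 peaks upstream of every 5' end. The strongest of the 61 was at zfp-1, with 429.4 in the optimal list, 250.8 in replicate 1 and 177.9 in replicate 2, 704 bp upstream of a 5' end. Among the 61 were also cfim-2 (296.2), the fatty acid desaturase gene fat-4 (171.9), the gene of the autophagy regulator hlh-30 (132) and, chosen after their values were seen, the receptor genes nhr-31 (115.5) and nhr-66 (97.22) and the stress response gene skn-1, with 2 such peaks (96.19 and 93.41). The nearest gene upstream of the peak's gene was on the same strand at 285 peaks (64.33%), with a median gap of 907 bp, and on the opposite strand at 158, with a median gap of 3418 bp. At 172 peaks (38.83%) that gap was under 1000 bp. The rule shapes these shares and gaps, since a summit also in the window of a close neighbour on the opposite strand was left out. No values over all genes were computed beside them.

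Upstream peaks lay near annotated non-coding RNA genes more often than core promoter peaks did. A gene for an RNA other than tRNA stood within 200 bp of 96 upstream summits (21.67%, exact 95% interval 17.92 to 25.8), against 42 of 421 core promoter summits (9.98%, 7.29 to 13.25), a difference of 11.69 points (Fisher's exact test, adjusted p = 0.0001011). Of the bases that meet the rule, 6.79% were that near to such a gene. This share was not computed for core promoter bases, so the difference between peaks cannot be compared with that between the underlying sequences. Against intergenic peaks, 55 of 390 (14.1%), the difference was 7.57 points (Fisher's exact test, adjusted p = 0.03707), but intergenic peaks by definition have no summit inside an RNA gene. Without summits inside an RNA gene the share was 55 of 402 upstream (13.68%), 23 of 402 core promoter (5.72%) and 55 of 390 intergenic peaks (14.1%). The difference from core promoter peaks then remained past the threshold (Fisher's exact test, adjusted p = 0.003351), while that from intergenic peaks was -0.42 points (adjusted p = 1). With all summits, the difference from intergenic peaks also missed the threshold above the median signal (10.75 points, Fisher's exact test, adjusted p = 0.1367). It missed it as well among the optimal peaks that were among the strongest of replicate 2, whatever their place in replicate 1 (6.96 points, Fisher's exact test, adjusted p = 0.1166).

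Peaks near an RNA gene had the higher signals, with a median of 190.7 at the 96 near one and 133.8 at the 347 others. Of the 111 strongest upstream peaks 42 (37.84%) were near an RNA gene, and of the 111 weakest 14 (12.61%). Most of the 96, 62 peaks, were near genes annotated only as ncRNA (median signal 181.6). Small nuclear RNA genes, whose products act in splicing or as spliced leaders, were nearest at 9 peaks, with a median signal of 387.9. Besides sls-2.4 and sls-2.1, these included F54D8.7, 43 bp from a summit of cox-6A (448.2, with 254.2 in replicate 1 and 195.6 in replicate 2), and T11F9.15, 45 bp from a summit of snr-4 (367.5, with 203.4 in replicate 1 and 157 in replicate 2). The weakest of the 9, W06D4.3 and C33A12.3 being named after their values were seen, were W06D4.3 (204.1), unc-31 (136.2) and C33A12.3 (123.1). The W06D4.3 summit was 135 bp from another SL2 RNA gene, sls-2.7, and the other summits lay inside a small nuclear RNA gene. The 9 peaks near small nuclear RNA genes included both summits of egg-5 and both of H41C03.3, so not all were separate loci. Their median was the value of the weaker egg-5 summit, beside sls-2.4, where values are uncertain. Small nucleolar RNA genes, whose products guide modification of other RNAs, were nearest at 13 peaks, with a median signal of 273.4. Their strongest was at F59C6.18, chosen after its value was seen (389.4). The protein-coding genes in these cases are named by the rule, and the data do not tell which of the 2 genes a peak belongs to.

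The DNA under upstream peaks was richer in G and C than that under core promoter and intergenic peaks, though not than that under peaks in shared promoters. Within 50 bp of the summit the median GC content was 44.55%, against 42.57% at core promoter peaks, 42.08% at intergenic peaks, 47.52% at shared promoter peaks, 43.56% over all optimal peaks and 33.66% over all upstream windows. It exceeded the median of all optimal peaks at 228 of 443 upstream summits (51.47%), against 167 of 421 core promoter summits (39.67%). The difference of 11.8 points passed the threshold (Fisher's exact test, adjusted p = 0.007533), though not among peaks above the median signal alone (11.85 points, adjusted p = 0.1889). Among intergenic summits 162 of 390 (41.54%) exceeded it, a difference of 9.93 points (Fisher's exact test, adjusted p = 0.03707) that did not pass within 100 bp of the summit in place of 50 bp (7.22 points, adjusted p = 0.1723) and also missed the threshold when the choice of peaks left out replicate 1 (10.39 points, adjusted p = 0.06922) or replicate 2 (10.31 points, adjusted p = 0.05384). Median GC content was 41.58% in the 111 weakest upstream peaks, 43.56% in both groups between and 48.51% in the 111 strongest. The part of GC content in the signal was not tested.

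**Figure D3:**
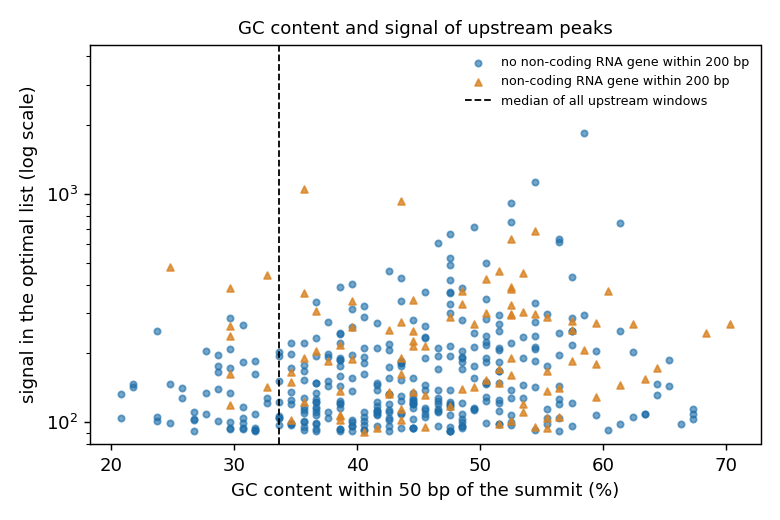
Signal in the optimal list (vertical, log axis) against the GC content within 50 bp of the summit (horizontal, percent) for the 443 upstream peaks. Triangles are peaks with a non-coding RNA gene within 200 bp. Most summits lie to the right of the dashed line, the 33.66% median of all upstream windows, and the strongest peak, rpl-3, stands at 58.42%.

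Motifs were searched on both strands within 50 bp of each summit, a match being exact and matches of different motifs being allowed to overlap. Shares at upstream summits are given beside those in all 248418 windows of that length, placed every 50 bp along the upstream sequence, which serve as a census. The GAGA repeat, GAGAGA, was the most frequent, at 22.8% of the 443 upstream summits (exact 95% interval 18.97 to 26.99), against 5.5% of windows. An E-box, CACGTG, the site of basic helix-loop-helix factors, stood at 31 summits (7%) against 1.64% of windows, and a GC box, GGGCGG, also at 31 (7%) against 1.72%. A GATA factor site, TGATAA, the site of factors that include the regulators of the gut, stood at 73 summits (16.48%) against 9.81%. These 4 were above the census, and so were the shares over all 2796 optimal peaks: 18.67% for the GAGA repeat, 6.83% for the E-box, 5.08% for the GC box and 16.88% for the GATA factor site. Examples are the windows of F59B1.8, F21C10.10, vig-1 and nhr-119 printed above.

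Several motifs were less frequent at upstream summits than in the census. A TATA box, TATAAA, was at 26 upstream summits (5.87%) against 12.02% of windows, and a T run, TTTTTTTT, at 20 (4.52%) against 13.02%. The heat shock element core, TTCNNGAA, was at 17 (3.84%) against 7.24%, the CCAAT box, CCAAT, at 70 (15.8%) against 19.93%, and the Ets core, CCGGAA, at 11 (2.48%) against 4.31%. The half-site AGGTCA, bound by many nuclear receptors, was at 13 upstream summits (2.94%), close to its share in all windows (2.46%). The bZIP site, TGANTCA, was at 14 (3.16%) against 2.82%, and the forkhead site, GTAAACA, at 4 (0.90%) against 1.16%. The X chromosome recruitment motif of dosage compensation, CGCGCAGG, was at 0 of 443 upstream summits, which allows a share of up to 0.83% (exact 95% interval), against 0.0306% of windows. Census windows differ from summits in GC content, so these contrasts were given no test.

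Among kinds of peak, 1 of 26 motif comparisons passed the threshold. The GATA factor site was less frequent at upstream summits, 73 of 443 (16.48%), than at intergenic summits, 112 of 390 (28.72%), a difference of -12.24 points (Fisher's exact test, adjusted p = 0.0004938), which did not pass when the search was narrowed to 25 bp on either side. At core promoter summits it was at 73 of 421 (17.34%, Fisher's exact test, adjusted p = 1). Within the upstream set it was at 10 of the 111 strongest summits (9.01%, exact 95% interval 4.41 to 15.94) and 22 of the 111 weakest (19.82%, 12.86 to 28.46). The GC box, 7% upstream against 13 of 421 core promoter summits (3.09%), did not pass (Fisher's exact test, adjusted p = 0.07468), nor did the TATA box, 5.87% upstream against 41 of 421 (9.74%, adjusted p = 0.1855), or the GAGA repeat, 22.8% upstream against 77 of 421 (18.29%, adjusted p = 0.3963).

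**Figure D4:**
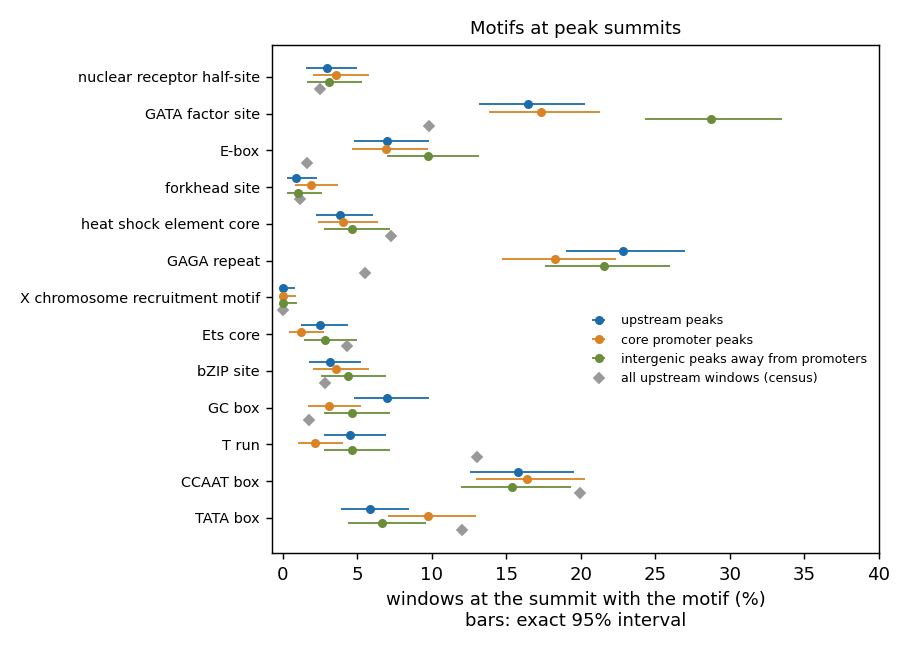
Share of summits with a match within 50 bp for each of the 13 motifs (horizontal, percent), for upstream, core promoter and intergenic peaks as points with exact 95% intervals, and for all upstream windows as grey diamonds without an interval. The 3 kinds of peak lie close together for most motifs, apart from the GATA factor site, which is at 16.48% upstream and 28.72% at intergenic peaks.

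Genes were grouped in 32 lists by name and function. Over all 17242 autosomal protein-coding genes, 415 (2.41%) had an upstream peak, with a median of 144.9 for the highest signal of each. Of the 415, 79 were in at least 1 list and 336 in none, and 25 of 32 lists held at least 1. A peak counted for its gene also where a non-coding RNA gene lay near, and such RNA genes are mentioned below only in some cases. The counts are descriptions, and their intervals are not adjusted for the number of lists. They also reflect the room before a gene, since genes whose promoter is shared with a neighbour have little or no sequence that meets the rule.

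Ribosomal protein genes had the highest share among lists of more than 20 genes, 13 of 79 (16.46%, exact 95% interval 9.06 to 26.49). Besides rpl-3 and rpl-35 the strongest were rpl-6, with 251.4 in the optimal list, 133.1 in replicate 1 and 119.1 in replicate 2, and rpl-41.2, with 202.5 in the optimal list, 113.7 in replicate 1 and 105.2 in replicate 2. The other 9 lay between 95.31 and 176.2, so rpl-3 and rpl-35 stood well apart from the rest of their list. Mitochondrial ribosomal protein genes had 4 of 70 (5.71%), led by mrpl-23 (167.2) and mrpl-32 (121). Respiratory chain genes had 5 of 60 (8.33%, 2.76 to 18.39), with a median signal of 313.4. These were cox-5A and cox-6A of cytochrome c oxidase, nduf-11 (313.4) and nduf-9 (150.4) of complex I, and cyc-1 (206.5), cytochrome c1. The summit of cox-6A was 43 bp from a small nuclear RNA gene, and that of nduf-9 lay inside a microRNA gene. The data do not tell which gene these peaks belong to. In translation factors and tRNA synthetases the count was 3 of 67 (4.48%), eif-3.C, eif-2Bgamma (341.1) and eif-3.B (202.8), all initiation factors.

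Nuclear hormone receptor genes, the family of NHR-102 itself, had an upstream peak at 10 of 247 (4.05%, exact 95% interval 1.96 to 7.32), with a median signal of 118.4, below the 144.9 of all genes. The strongest was nhr-135, with 337.3 in the optimal list, 213.1 in replicate 1 and 127.2 in replicate 2, followed by nhr-119 with 279.4 in the optimal list, 141.7 in replicate 1 and 137.4 in replicate 2. Next was nhr-49, a regulator of fat metabolism, with 152.7 in the optimal list, 94.62 in replicate 1 and 55.4 in replicate 2. The fourth, nhr-105, had 127.1 in the optimal list, 58.59 in replicate 1 and 68.52 in replicate 2. The other 6, named after their values were seen, were nhr-114 (121.3), a gene of the response to diet, nhr-31 (115.5), nhr-69 (110.2), nhr-66 (97.22), nhr-208 (94) and nhr-130 (91.3). At the gene nhr-102 no optimal peak lay within 1000 bp, and none lay within 1000 bp of unc-119, the gene mutated in the strain.

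Metabolic genes gave small counts. The exact 95% interval of each metabolic list that follows holds the 2.41% of all genes. UDP-glucuronosyltransferase genes, whose products conjugate foreign and endogenous compounds, had 4 of 63 (6.35%). They were ugt-20 (440.6, with 239.9 in replicate 1 and 195.8 in replicate 2), ugt-40 (423.9, with 194.9 in replicate 1 and 228.1 in replicate 2), ugt-37 (184.4) and ugt-62 (110.9). The summit of ugt-40 lay in an intron of its neighbour ugt-37 and 25 bp from a non-coding RNA gene. Fatty acid breakdown and lipase genes had 4 of 79 (5.06%), the acyl-CoA synthetase gene acs-2 (209.7), the lipase gene fil-2 (161.8), the enoyl-CoA hydratase gene ech-6 (133.8) and daf-22 (94.64), a thiolase of peroxisomal fat breakdown. Fatty acid desaturase and elongase genes had 2 of 22 (9.09%, interval 1.12 to 29.16), fat-4 (171.9) and elo-6 (135.2). Propionate and vitamin B12 genes had 2 of 15 (13.33%, interval 1.66 to 40.46), ech-6 and nhr-114. The list of dehydrogenases had 2 of 35 (5.71%), dhs-8 (324.8), whose summit lay inside a non-coding RNA gene, and dhs-22 (114.3). Glutathione S-transferases had 1 of 44 (2.27%), gst-27 (207.9), whose summit was 23 bp from a small nucleolar RNA gene.

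Lists of protein folding, turnover and nuclear genes gave counts between 0 and 3. Heat shock proteins and chaperones had 3 of 54 (5.56%), dnj-9, hsp-1 (288.4), an Hsp70 chaperone, and dnj-20 (91.1). Vacuolar ATPase and lysosomal protease genes had 2 of 42 (4.76%), asp-12 (148.5) and vha-13 (98.03), and proteasome genes 1 of 33 (3.03%), pas-5 (259.7), with its summit inside a small nucleolar RNA gene. Histone genes had 2 of 68 (2.94%), his-42 (191.4) and his-15 (92.15), and splicing factors 1 of 73 (1.37%), snr-4 (382.3), a core protein of spliceosomal particles. The 382.3 summit of snr-4 lay 2 bp from a non-coding RNA gene and in no peak of replicate 1. Basic helix-loop-helix factors had 2 of 29 (6.90%), hlh-11 (195.7) and hlh-30 (132). None of the 72 homeobox genes had an upstream peak, which allows a share of up to 4.99%, and none of the 6 GATA factor genes did.

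Several other gene families had few upstream peaks, though only the intervals of chemoreceptor and C-type lectin genes lay below the 2.41% of all genes. Chemoreceptor genes had 7 of 1088 (0.64%, exact 95% interval 0.26 to 1.32), below the 2.41% of all genes, led by sre-23 (298.1), srh-76 (222.1), srh-2 (205.8) and srr-4 (205.2). The summit of sre-23 was 59 bp from a small nucleolar RNA gene. C-type lectin genes, with roles in immunity, had 0 of 237, which allows up to 1.54%, neuropeptide and insulin genes 0 of 110 (up to 3.30%) and cytochrome P450 genes 0 of 67 (up to 5.36%). Among F-box genes the count was 4 of 341 (1.17%), fbxa-83 (303.8), fbxc-29 (267.3), fbxb-72 (175.5) and fbxc-19 (142.5). The fbxa-83 summit was 23 bp from a small nucleolar RNA gene, and that of fbxc-19 lay in a UTR of fbxa-3. The interval of fbxb-72, 4623 bp long, also held a weaker summit of srh-2 (147.8) in a coding exon of icl-1. The data do not tell which gene these peaks belong to. Cuticle collagens had 2 of 151 (1.32%), col-63 (214.8) and col-20 (133.2), transporters 1 of 105 (0.95%), aqp-10 (219.7), and immune effectors 1 of 84 (1.19%), the lysozyme gene lys-8 (102.1).

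Lists of tissue markers were short, and their intervals wide. Intestine markers had 2 of 12 (16.67%, exact 95% interval 2.09 to 48.41), act-5 (210.5), the actin of the intestinal brush border, and the metallothionein gene mtl-1 (98.32). Neuronal markers had 2 of 22 (9.09%, 1.12 to 29.16), unc-31 (136.2) and snb-1 (93.84), a synaptic vesicle protein, and germline markers 1 of 35 (2.86%, 0.07 to 14.92), the RNA helicase gene cgh-1 (176.5). The unc-31 summit lay inside a small nuclear RNA gene in an intron of unc-31. Body wall muscle markers had 0 of 16 and epidermis and seam markers 0 of 20, which allow up to 20.59% and 16.84%. Every one of these intervals holds the 2.41% of all genes.

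**Figure D5:**
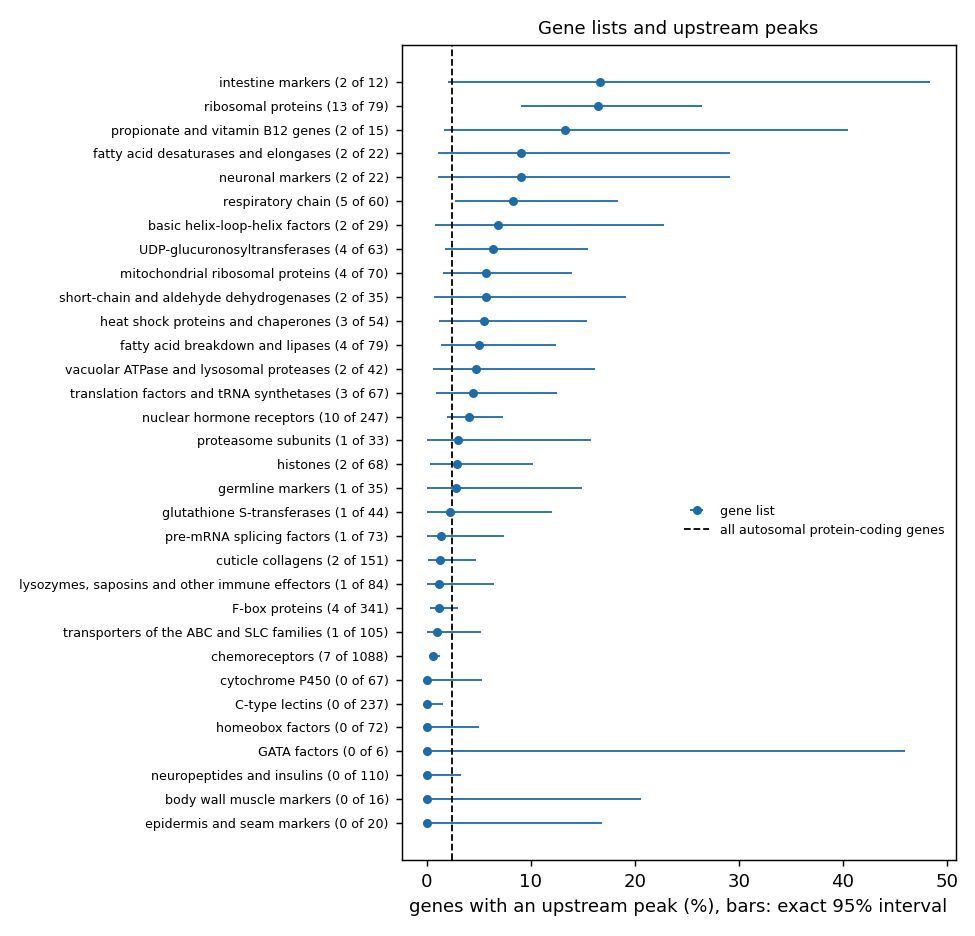
Share of the autosomal genes of each list that had an upstream peak (horizontal, percent), with exact 95% intervals, sorted from the highest share down, and with the counts beside each name. Counts include peaks at or beside RNA genes, among them cox-6A and nduf-9 of the respiratory chain. The dashed line is the 2.41% of all autosomal protein-coding genes. The intervals of the ribosomal protein genes, 9.06 to 26.49, and the respiratory chain genes, 2.76 to 18.39, lie above the line, and those of the chemoreceptor and C-type lectin genes lie below it.

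A total of 27 genes had more than 1 upstream peak, 22 genes also had a core promoter peak, and 21 upstream peaks shared their interval with another summit. At egg-5 both summits lay in 1 interval of 829 bp, with signals of 1045 and 387.9, and at H41C03.3 in 1 of 745 bp, with 930.5 and 476.9. In both cases the same SL2 RNA gene was within 200 bp of each summit. The gene snr-4 had 382.3, at a summit in no peak of replicate 1, and 367.5, while zfp-1 had 3 upstream peaks, of 429.4, 227.1 and 93.89. Of the other genes with the highest signals, mog-4 had 495.9 and 142.1, Y54G11A.2 had 485.6 and 271.6 and lgg-2, an autophagy protein gene, had 372.3 and 132.2. The translation initiation gene eif-2Bgamma had 341.1 and 170.5, the ubiquitin ligase gene eel-1 had 331.2 and 196.5, and F38E11.9 had 293.8 and 264.8. The 170.5 summit of eif-2Bgamma lay in no peak of replicate 2, and the 293.8 summit of F38E11.9 in none of replicate 1. Summits of 1 gene are not independent measurements, and keeping 1 peak per shared interval changed the comparison of the GC box with core promoter peaks, which then passed the threshold (7.19% upstream and 2.89% core, Fisher's exact test, adjusted p = 0.02777).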

How the data were processed

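ChIP-seq with an antibody against GFP was performed on whole L4 hermaphrodites of strain OP463 in 2 biological replicates, which form 1 group. The antibody label names nhr-102 and the sample description GFP, and the description is followed here. The deposited peak lists in ce11 give, per the file layout, the authors' signal of each peak, a -log10 q value, which was a single value in every peak of the optimal list and was not used, and the distance of the summit from the start. Per the submitters' notes, both replicates had the same control file, and the optimal list was derived from the lists of each replicate and of the pool by the irreproducible discovery rate. No aligner, peak caller or threshold is given in the sources used here. Since the lists give no read numbers, depth is unknown, and intervals cover counting error only.

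Genes came from Ensembl release 115 and sequence from RefSeq, both of WBcel235. Transcript 5' ends were those of protein-coding transcripts. A replicate's signal and rank are those of its peak that holds the summit and has the nearest summit of its own. Shares of peaks were compared with Fisher's exact test, two-sided, and p-values adjusted by Benjamini-Hochberg over 36 comparisons (5 traits and 13 motifs, each against core promoter and intergenic peaks), with a threshold of 0.05. The test was checked on simulated data. Intervals are exact binomial (Clopper-Pearson) at 95%. Gene lists were counted and not tested. Named genes were those of the 20 strongest peaks, up to 4 of each list, up to 10 with several peaks, the peaks nearest to each limit of distance, up to 6 most discordant between replicates, nhr-102 and unc-119. The members, lists, motifs and tests were chosen with earlier results of these data known. Calculations used Python 3.11.15, SciPy 1.17.1, pandas 2.3.3, numpy 2.4.6 and matplotlib 3.10.9.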

Additional observations from a re-analysis of the deposited data

How the results depend on the processing

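Against core promoter peaks, upstream peaks kept their higher shares of GC-rich summits and of summits near an RNA gene in every alternative run, except that GC content missed the threshold among peaks above the median signal (11.85 points, Fisher's exact test, adjusted p = 0.1889). Against intergenic peaks the GC difference missed it within 100 bp of the summit (7.22 points), above the median signal (9.00), without summits inside an RNA gene (8.96) and without a replicate (10.31 to 10.39). Here, without a replicate means that only optimal peaks among the strongest of the other replicate were kept. The optimal list and its summits, derived from both replicates, stayed the same, so the replicate left out still shaped the peaks. The RNA gene difference from intergenic peaks missed it above the median signal (10.75 points, Fisher's exact test, adjusted p = 0.1367), ranged between 6.96 and 9.14 without a replicate and turned to -0.42 without summits inside an RNA gene. The share among the strongest of both replicates was never past the threshold. When all optimal peaks were kept and the strongest of a single replicate were counted, its difference ranged between -2.14 and 3.65 points against core promoter peaks. Against intergenic peaks it ranged between -0.88 and 2.09 points. Motifs past the threshold against core promoter peaks were 0 as reported and 1 with 1 peak per shared interval (GC box, Fisher's exact test, adjusted p = 0.02777), with the farthest 5' end only (GC box, adjusted p = 0.01812) and within 100 bp of the summit (TATA box, 17.16% upstream and 25.18% core, adjusted p = 0.03707). Against intergenic peaks the GATA factor site passed in each alternative but the search within 25 bp, which left 0 motifs. The causes of these shifts were not tested. Above the median signal, 225 upstream peaks remained. Their number was 400 with the farthest 5' end only and 445 with 5' ends of all transcripts. Among single gene lists, 19 counts moved by more than 1.5 times and 56 stayed within that. The alternatives on summits inside an RNA gene, on all transcripts and on the nearest replicate summit were chosen after seeing the data. The lists bound what can be said: they hold no read numbers and no control signal, and 2 replicates of 1 group allow no comparison of conditions. No paired analysis was possible because there was a single group.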

Other observations

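After the strongest sequences were seen, 1 word of 9 bases, AAGTGTNCG on either strand, was noticed in the windows of rpl-3, rpl-35 and cox-5A, and it was then counted over all peaks without a test. It stood within 50 bp of 6 of 443 upstream summits (1.35%, exact 95% interval 0.50 to 2.92), 4 of 421 core promoter summits (0.95%), 3 of 390 intergenic summits (0.77%), 6 of 351 summits in shared promoters (1.71%) and 551 of 248418 upstream windows (0.22%). The 6 upstream peaks were those of rpl-3 (1849), rpl-35 (1122), cox-5A (914.7), usp-4 (249.9), ndx-6 (210.9) and nhr-105 (127.1), the names usp-4 and ndx-6 being chosen after their values were seen.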
